A study of Mus musculus with 96 samples.

Results

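The genes described here are 32 corticosteroid receptors and glucocorticoid-induced genes of the mouse, taken as a named list, and all 32 were rows of the 22709-gene table of normalized counts. The list was chosen with earlier results of these data known. Counts set beside the share of all genes are therefore a description of the list. Bulk RNA sequencing was done on hippocampus and prefrontal cortex, 48 libraries of each, from mice of both sexes that had maternal immune activation (MIA) or a saline injection as their prenatal treatment. Each of these was combined with the CSF1R inhibitor PLX5622 (labelled Plexxikon and called PLX here), which depletes microglia, or with no inhibitor (control). In each tissue the groups were MIA PLX females, MIA control females, saline PLX females, saline control females and the same 4 combinations in males, with 6 libraries each except for 7 in MIA control females and 5 in MIA control males. The labels used here give no strain, age, litter, immune agent, inhibitor dose or time of sampling. Each library is labelled as a separate sample, so a p-value measures the spread between libraries. Because litters are not given, tests of MIA take the libraries as independent.

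Glucocorticoids such as corticosterone are released from the adrenal gland after stress and with a daily rhythm. In brain cells they bind the mineralocorticoid receptor and, at higher hormone levels, the glucocorticoid receptor, which then enters the nucleus and binds DNA as a pair at an inverted repeat of the hexamer AGAACA. Genes switched on in this way include feedback inhibitors of the receptor, transcription factors and enzymes of lipid and glucose metabolism, many of them in glial and endothelial cells.

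The list held both receptors and the hormone-activating enzyme (Nr3c1, Nr3c2, Hsd11b1), 9 feedback and signalling genes (Fkbp5, Sgk1, Tsc22d3, Errfi1, Dusp1, Ddit4, Map3k6, Nfkbia, Irs2), 8 transcription factors or regulators (Zbtb16, Klf9, Klf15, Cebpd, Bcl6, Hif3a, Tob2, Tiparp), 5 genes of metabolism and transport (Pdk4, Sult1a1, Plin4, Angptl4, Slc2a1), both metallothioneins (Mt1, Mt2), and 5 others (Cdkn1a, Arl4d, Lcn2, Sdc4, Htra1). RefSeq promoter windows of 300 bases (250 before to 50 after a start site, build GRCm38.p6) were matched for 28 of the 32, as 38 windows. The full palindrome (AGAACA, any 3 bases, then TGTTCT), searched on both strands, was in 1 of these 38, a window of Sgk1, and in 3 of all 32851 windows (0.00913%). Its core ACANNNTGT, which every full palindrome also holds, was in 5 windows of 4 of these genes (13.2%), against 6.85% of all windows. The hexamer AGAACA alone, searched on both strands, which the full palindrome holds as well, was in 15.8% of their windows and in 19.0% of all windows. The 5 windows with the core are printed because they are the ones on the list that hold the spaced core of the receptor's inverted repeat. Capitals mark the match, which in the second Sgk1 window is the full palindrome, starting 189 bases before the start site. The Lcn2 window is on the minus strand and the others are on the plus strand.
Lcn2 chr2:32387690-32387989: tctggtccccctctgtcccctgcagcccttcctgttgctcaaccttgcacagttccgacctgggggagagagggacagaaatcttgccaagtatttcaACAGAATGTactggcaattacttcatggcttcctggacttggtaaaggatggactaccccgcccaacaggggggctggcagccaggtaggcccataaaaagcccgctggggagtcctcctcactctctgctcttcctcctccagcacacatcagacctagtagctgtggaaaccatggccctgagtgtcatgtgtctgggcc
Map3k6 chr4:133240568-133240867: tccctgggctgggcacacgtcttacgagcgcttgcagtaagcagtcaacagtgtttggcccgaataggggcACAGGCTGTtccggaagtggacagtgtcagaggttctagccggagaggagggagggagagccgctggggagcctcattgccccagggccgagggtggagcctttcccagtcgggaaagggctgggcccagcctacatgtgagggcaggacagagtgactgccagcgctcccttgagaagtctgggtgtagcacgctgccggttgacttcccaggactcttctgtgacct
Mt1 chr8:94178839-94179138: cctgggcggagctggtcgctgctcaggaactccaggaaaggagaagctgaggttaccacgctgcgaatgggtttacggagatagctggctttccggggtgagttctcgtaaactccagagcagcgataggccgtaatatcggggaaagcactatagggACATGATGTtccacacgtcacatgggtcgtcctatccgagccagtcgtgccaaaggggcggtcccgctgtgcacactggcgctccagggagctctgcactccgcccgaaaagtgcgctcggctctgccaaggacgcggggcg
Sgk1 chr10:21978422-21978721: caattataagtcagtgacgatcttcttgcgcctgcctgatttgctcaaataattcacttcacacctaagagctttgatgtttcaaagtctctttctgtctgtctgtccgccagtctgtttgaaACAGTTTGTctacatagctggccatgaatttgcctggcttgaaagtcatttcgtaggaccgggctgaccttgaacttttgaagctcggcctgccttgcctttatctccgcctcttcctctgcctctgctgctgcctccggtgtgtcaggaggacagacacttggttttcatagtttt
Sgk1 chr10:21993640-21993939: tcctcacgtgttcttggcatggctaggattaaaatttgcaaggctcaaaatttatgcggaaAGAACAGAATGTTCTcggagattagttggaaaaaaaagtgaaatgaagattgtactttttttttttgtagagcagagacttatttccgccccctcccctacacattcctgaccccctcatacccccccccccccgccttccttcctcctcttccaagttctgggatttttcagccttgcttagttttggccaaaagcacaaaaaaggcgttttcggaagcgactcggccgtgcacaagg
A match is a string of letters in this window, and none of these data measured binding there.

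The values are normalized counts, and each library held 22.2 to 26.7 M recovered reads for hippocampus and 22.8 to 25.9 M for prefrontal cortex. The hippocampal label was checked against a defining gene: Prox1, a dentate gyrus factor, had 1849 to 4758 normalized counts in hippocampus, against 222 to 423 in prefrontal cortex. Ttr, which choroid plexus makes in bulk, ran from 200 to 89354 in hippocampus, against 4.82 to 284 in prefrontal cortex. In both tissues the libraries of the same 14 labels lay apart from the other 34 on the first principal component, whose share of the variance was 25.3% for hippocampus and 27.9% for prefrontal cortex. These 14 were 2 of the 24 PLX labels and 12 of the 24 control labels. Ribosomal and respiratory chain genes took 1.22 to 1.4% of the counts in the 14 hippocampal libraries and 0.862 to 1.07% in the others, and 1.19 to 1.36% against 0.828 to 1.15% in prefrontal cortex. The correlations leave these labels out, and the PLX calls are given with and without a term for them.

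The glucocorticoid-responsive genes differed more among libraries of one group than most genes did, and a label that was high in one tissue was high in the other. The SD within groups, on the log2(normalized count + 1) scale used for every difference here, had a median over the 32 genes of 0.27 in hippocampus and 0.32 in prefrontal cortex, against 0.21 and 0.22 over all genes tested. Plin4, a coat protein of lipid droplets, had an SD of 1.01 in hippocampus and 1.16 in prefrontal cortex, above 99.1% and 99.7% of genes. Hif3a, a relative of the hypoxia factors, had 0.59 and 0.57, and the transcription factor Cebpd had 0.38 in hippocampus and 0.61 in prefrontal cortex, while the transcription factor Klf9 (0.12 and 0.14) and the repressor Bcl6 (0.13 in each tissue) varied little. Lcn2, a secreted lipocalin, had the largest SD (1.65 and 1.43), with values up to 173 in hippocampus (median 3.17) and up to 86.1 in prefrontal cortex (median 4.53), and 0 as the lowest in each.

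The 7 MIA control females show the spread. Their hippocampal libraries 1 to 7 held 169, 39.3, 893, 219, 605, 88.9 and 93.4 normalized counts of Plin4. In the prefrontal cortex the same labels held 53, 15.4, 1107, 154, 317, 67.5 and 51.7. Labels 3 and 5 were the highest and label 2 the lowest in both tissues, a range of 22.7-fold in hippocampus and 72.1-fold in prefrontal cortex. Fkbp5, a co-chaperone that lowers the hormone affinity of the glucocorticoid receptor and so closes a feedback loop, held 1598, 1369, 3353, 2447, 2426, 1360 and 1426 in their hippocampi. In their prefrontal cortices it held 785, 688, 2222, 1744, 1335, 720 and 679. Labels 3, 4 and 5 formed the high end of Fkbp5 in both tissues, with the other 4 labels well below. Of the 7 labels, labels 2 and 4 are among the 14 that stand apart. Without labels 2 and 4, Plin4 ran from 88.9 to 893 in hippocampus and from 51.7 to 1107 in prefrontal cortex. In saline control females Plin4 ran only from 158 to 891 in hippocampus (median 383) and from 148 to 494 in prefrontal cortex (median 263), and Fkbp5 from 1723 to 2267 (median 2136) and from 908 to 1354 (median 1111). Of these 6 saline labels, 3 stand apart.

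**Figure D1:**
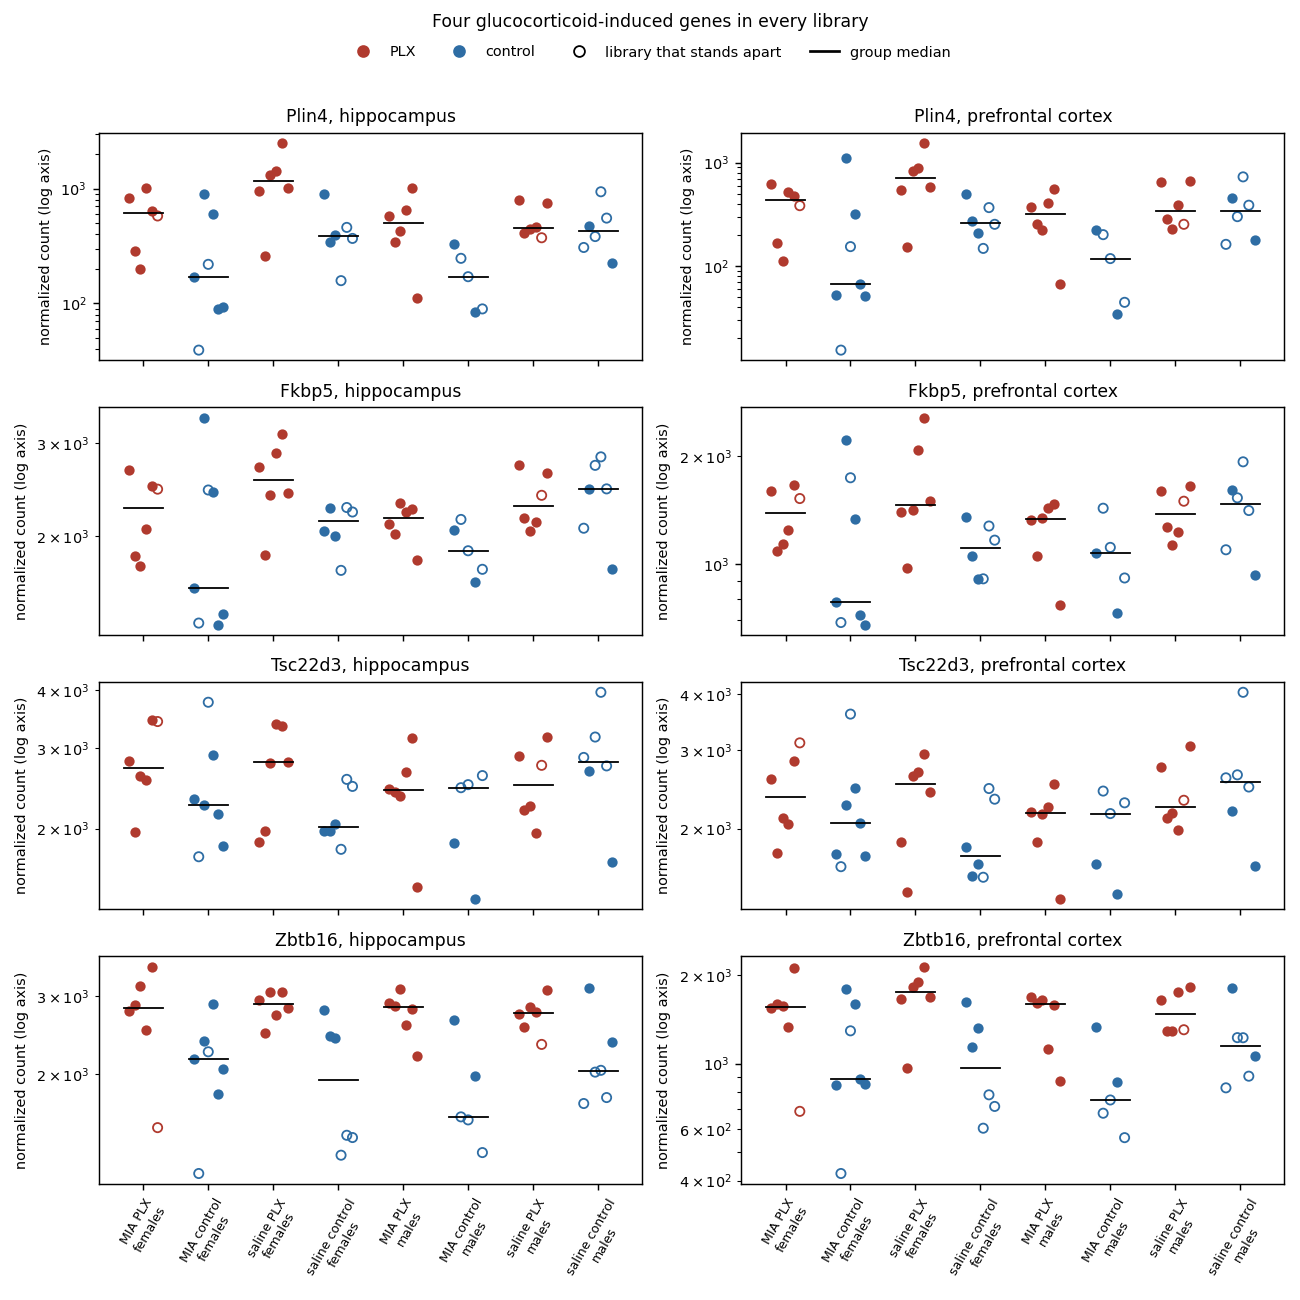
Normalized counts (log axis) of Plin4, Fkbp5, Tsc22d3 and Zbtb16 in every library of the 8 groups, hippocampus left and prefrontal cortex right. Open circles are the 14 labels that stand apart and lines are group medians. Within MIA control females Plin4 spans 39.3 to 893 in hippocampus, against 15.4 to 1107 in prefrontal cortex. The lowest of these values in each tissue is from label 2, which stands apart.

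Deviations from the group mean were compared between the hippocampal and the prefrontal library of each label, over the 34 labels that do not stand apart. The labels do not state that a shared label is a shared animal. Of the 32 genes 23 were correlated at an adjusted p under 0.05 (permutation within groups, 100000 resamples, Benjamini-Hochberg over all 19366 genes), all positively, against 5.13% of all genes. An r of at least 0.5 was reached by 26 of 32, against 8.61% of all genes, and the median r was 0.74, against 0.16 over all genes. For Plin4, r was 0.96 and rho 0.96 (permutation p = 1e-05 for each, adjusted p = 0.00223 and 0.00277), and r was 0.95 without the 2 farthest labels. For Fkbp5, r was 0.93 and rho 0.91 (permutation p = 1e-05 for each, adjusted p = 0.00223 and 0.00277), and r was 0.90 without the 2 farthest labels. The p of 1e-05 is the smallest that these resamples can give.

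Among feedback and signalling genes, Tsc22d3, the leucine zipper protein GILZ that mediates anti-inflammatory effects, had an r of 0.91, the kinase Sgk1 0.89, the phosphatase Dusp1 0.81 and the EGF receptor inhibitor Errfi1 0.79. Among regulators, Hif3a had 0.92, the antiproliferative protein Tob2 0.84 and the zinc finger protein Zbtb16 (PLZF) 0.83. The glucose transporter Slc2a1 had 0.83, the sulfotransferase Sult1a1 0.80, the proteoglycan Sdc4 0.87 and the secreted protease Htra1 0.81. The receptors and the activating enzyme were not among the 23: r was 0.49 for Nr3c1 (permutation p = 0.00977, adjusted p = 0.106), -0.02 for Nr3c2 and 0.10 for Hsd11b1. The other genes that were not called were Map3k6, Tiparp, Irs2, Bcl6, Cdkn1a and Cebpd, with r between 0.15 and 0.57. Leaving out the 2 farthest labels of each gene left 21 of the 32 called and turned no sign.

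Among the 14 labels that stand apart, 12 fall in groups with more than 1 such label, which leaves 1728 arrangements and no gene at all could be called. Their r was at least 0.5 for 28 of 32 genes, against 22.5% of all genes, with a median of 0.76. Without the 2 farthest labels of each gene, the sign held for 30 of 32, and r fell in size by up to 0.75.

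**Figure D2:**
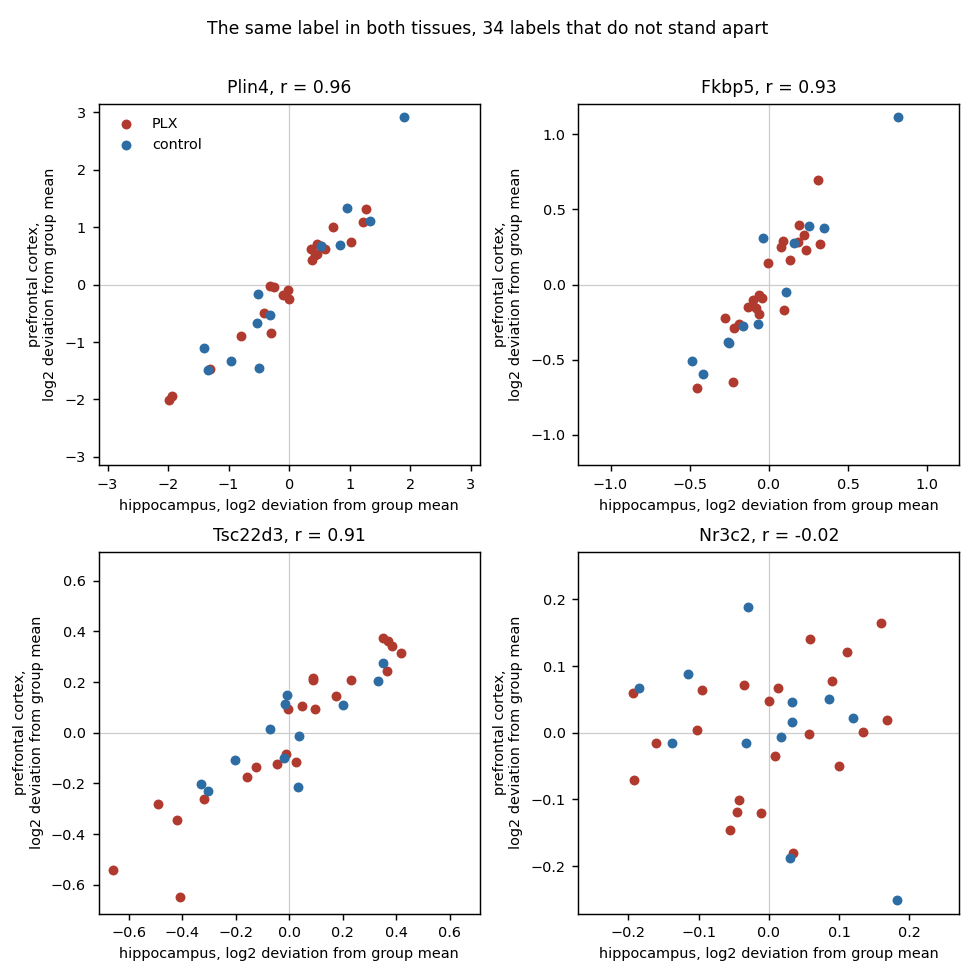
Log2 deviation from the group mean in hippocampus (x axis) and prefrontal cortex (y axis) for 34 labels, PLX and control in different colours. Plin4, Fkbp5 and Tsc22d3 follow the diagonal with r of 0.96, 0.93 and 0.91, and Nr3c2 shows no such relation, with r of -0.02.

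Within a tissue many of the induced genes varied together with Fkbp5. In hippocampus 13 of the other 31 genes were positively correlated with it over the 34 libraries at an adjusted p under 0.05, against 1.03% of genes, and 1 negatively, against 0.597%. In prefrontal cortex 14 of 31 were positively correlated, against 0.756% of genes, and 0 negatively, against 0.408%. An r of at least 0.5 was reached by 13 and 15 of 31, against 3.96% and 3.51% of genes. These p-values are from permutation within groups, adjusted over 19937 genes in hippocampus and 19840 in prefrontal cortex.

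Plin4 had an r of 0.84 (rho 0.84, permutation p = 2e-05 for each, adjusted p = 0.00848 and 0.0111, 0.81 without the 2 farthest) in hippocampus. In prefrontal cortex it had 0.93 (rho 0.89, permutation p = 1e-05 for each, adjusted p = 0.00422 and 0.00536, 0.90 without the 2 farthest). The metallothionein Mt1, which binds zinc and copper, had 0.78 and 0.93, and Mt2 had 0.76 and 0.86. Htra1 had 0.82 and 0.88, Sdc4 0.77 and 0.84, Slc2a1 0.72 and 0.81, and Sult1a1 0.69 and 0.75. Of the regulators, Hif3a had 0.75 and 0.76, Klf9 0.77 and 0.67, and Klf15 0.48 and 0.71, all called. Zbtb16 had 0.59 in hippocampus (adjusted p = 0.114) and 0.83 in prefrontal cortex (adjusted p = 0.00601), and Angptl4, which inhibits lipoprotein lipase, had 0.47 (adjusted p = 0.0657) and 0.80 (adjusted p = 0.00422). Of the signalling genes, Tsc22d3 (0.58 and 0.79) and the kinase Map3k6 (0.54 and 0.74) were called in both tissues. Cdkn1a, the cell cycle inhibitor p21, was called in hippocampus (0.68, adjusted p = 0.0187) and not in prefrontal cortex (0.33, adjusted p = 0.389).

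Several known glucocorticoid targets were not called with Fkbp5 in either tissue, which does not show that a weaker relation is absent. Sgk1 had an r of 0.33 in hippocampus (adjusted p = 0.24) and 0.45 in prefrontal cortex (adjusted p = 0.17). For Ddit4, an inhibitor of mTORC1, it was 0.01 and 0.28, and for Pdk4, which holds back pyruvate oxidation, -0.08 and -0.05. Errfi1 (0.02 and 0.10), Tob2 (-0.08 and -0.23) and Tiparp (-0.21 and -0.38) were not called either. Ddit4, Pdk4, Errfi1 and Tob2 were each correlated between the tissues of a label, though their relation with Fkbp5 was not called.

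Nr3c1, the glucocorticoid receptor itself, ran opposite to Fkbp5. In hippocampus r was -0.66 (rho -0.65, permutation p = 0.00016 and 0.00037, adjusted p = 0.0242 and 0.0371, -0.61 without the 2 farthest). In prefrontal cortex it was -0.65 (rho -0.55, permutation p = 0.00101 and 0.00312, adjusted p = 0.067 for r, -0.59 without the 2 farthest), which is past the threshold only before adjustment. In MIA control females, Nr3c1 in hippocampus was 2731, 2579, 2319, 1933, 2421, 2924 and 2695 in libraries 1 to 7. The 3 libraries high in Fkbp5 (3, 4 and 5) were the 3 lowest in Nr3c1, and of these library 4 is one that stands apart and is not among the 34. Nr3c2 had an r of -0.13 in hippocampus and -0.59 in prefrontal cortex (adjusted p = 0.1).

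Both genes of such a pair come from one library and share its depth and composition. Fkbp5 of one tissue was also set against each gene of the other tissue of the label. Fkbp5 was itself strongly correlated between the tissues, and all 48 labels stood apart in both tissues or in neither. This setting therefore cannot separate composition that both libraries of a label share. With Fkbp5 of the prefrontal cortex, 13 of 31 genes were called in hippocampus, all positively, against 1.37% of genes, and 15 had an r of at least 0.5, against 4.54%. With Fkbp5 of the hippocampus, 12 of 31 were called in prefrontal cortex, all positively, against 0.358%, and 15 had an r of at least 0.5, against 2.53%. Plin4, Mt1, Mt2, Htra1, Sdc4, Slc2a1, Sult1a1, Hif3a, Angptl4 and Tsc22d3 were called in both directions, while Nr3c1 was called in neither. In the 12 libraries of the set that stands apart 0 genes of the whole table could be called, and an r of at least 0.5 was reached by 16 of 31 in hippocampus, against 13.0% of genes, and by 18 in prefrontal cortex, against 14.0%. An r of -0.5 or less was found for 7 of 31 in hippocampus, against 10.2% of genes, and for 3 in prefrontal cortex, against 11.0%. Without the 2 farthest libraries of this set, the sign held for 24 of 31 genes in hippocampus and 28 of 31 in prefrontal cortex.

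Other genes of the same pathway were described from 2 further lists. Of 20 other glucocorticoid targets, 8 were positively correlated with Fkbp5 in hippocampus and 8 in prefrontal cortex at an adjusted p under 0.05, against 1.03% and 0.756% of genes. They included Mfsd2a, a lipid transporter of brain endothelium (0.84 and 0.88), Mertk, a receptor for the uptake of dying cells (0.83 and 0.79), and Fam107a, an actin-binding stress gene (0.82 and 0.77). On the same list Per1 had an r of -0.53 in hippocampus and Maoa -0.57 in prefrontal cortex, with 0 genes negatively called in either tissue. Of 19 genes of the receptor machinery (chaperones, co-activators, co-repressors and hormone-handling genes) 0 were called with Fkbp5 in either tissue. The immediate early genes, a list of 10 activity-dependent genes such as Fos, Arc and Npas4, were taken as the mean of their log2 deviations. Over the same 34 libraries this mean had an r with Fkbp5 of -0.71 in hippocampus (rho -0.68, r -0.58 without the 2 farthest) and -0.43 in prefrontal cortex (rho -0.47). The endothelial markers, as the same kind of mean, had an r of -0.30 in hippocampus (rho -0.32) and -0.55 in prefrontal cortex (rho -0.51, r -0.45 without the 2 farthest). Hippocampus first, astrocyte markers had 0.44 and 0.03, excitatory neuron markers -0.41 and -0.21, and interneuron markers 0.16 and 0.5. Mural and fibroblast markers had -0.42 and -0.33, and microglial markers 0.16 and -0.38. Oligodendrocyte, choroid plexus and blood markers had an r between -0.22 and 0.2. The first principal component had 0.39 and 0.36. These relations share the library with Fkbp5 and are given as a description. Their part in the relations with Fkbp5 was not tested. The number of recovered reads had an r of 0.03 in hippocampus and 0.19 in prefrontal cortex.

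**Figure D3:**
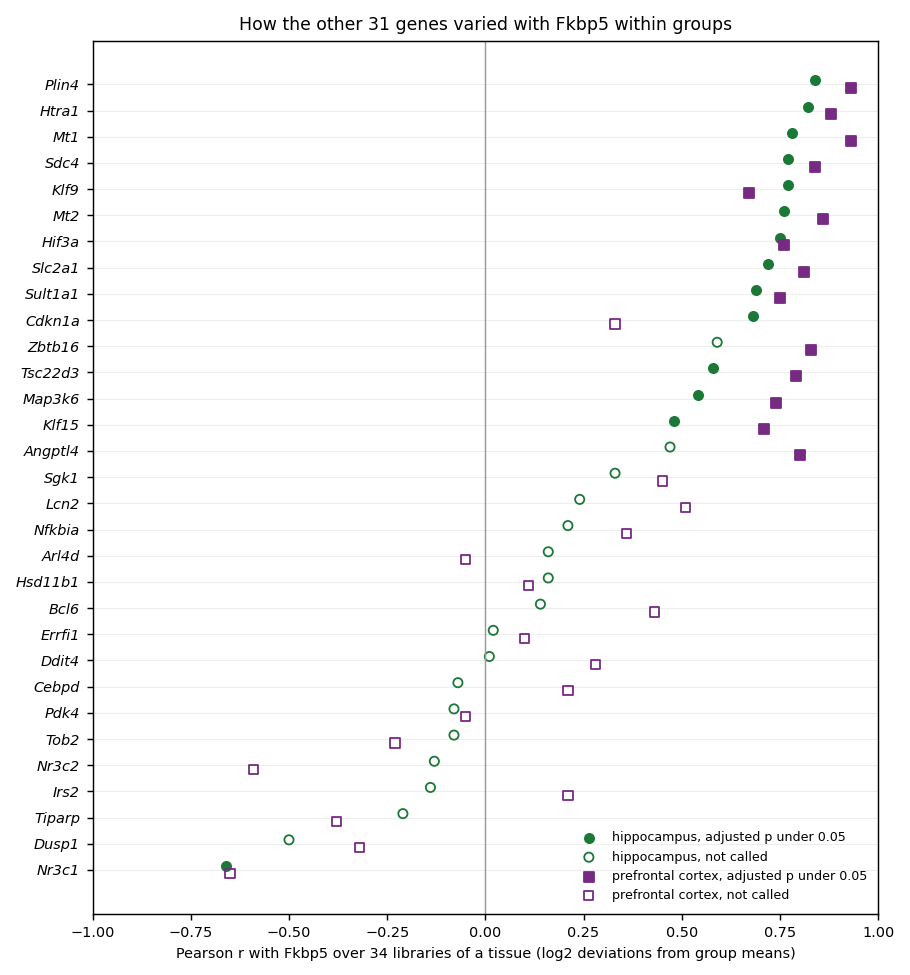
Pearson r (x axis) of the 31 other genes with Fkbp5 over 34 libraries in hippocampus (circles) and prefrontal cortex (squares), filled where the adjusted p was under 0.05. Plin4 lies at the high end with 0.84 and 0.93, and Nr3c1 is lowest with -0.66 and -0.65.

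The inhibitor comparison asked what PLX changed. Averaged over both sexes and both prenatal treatments, PLX raised 6 and lowered 2 of the 32 genes in each tissue (limma, adjusted p under 0.05). This share lies below that of all genes, of which 40.0% in hippocampus and 37.8% in prefrontal cortex passed. Plin4, Hif3a, Zbtb16, Irs2 and Klf9 rose, and Dusp1 and Hsd11b1 fell, in both tissues. Map3k6 rose in hippocampus and Fkbp5 in prefrontal cortex.

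Plin4 had 200 to 1018 (median 608) normalized counts in hippocampi of MIA PLX females, against 39.3 to 893 (median 169) in MIA control females. It had 258 to 2470 (median 1167) in saline PLX females, against 158 to 891 (median 383) in saline control females. In MIA PLX males it had 112 to 1003 (median 502), against 326, 247, 171, 85 and 89.7 in MIA control males. The groups overlapped in each of these pairs, and in saline males the medians were close, 453 with PLX (373 to 792) and 427 without (226 to 937). The averaged log2 fold change was 1.14 ± 0.28 (SE, adjusted p = 0.002) in hippocampus and 1.10 ± 0.32 (adjusted p = 0.00717) in prefrontal cortex.

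Zbtb16 had 1512 to 3491 (median 2813) in hippocampi of MIA PLX females, against 1191 to 2875 (median 2161) in MIA control females. In saline PLX females it had 2479 to 3064 (median 2876), against 1310 to 2785 (median 1933) in saline control females. In MIA PLX males it had 2196 to 3102 (median 2825), against 2652, 1599, 1574, 1981 and 1328 in MIA control males. In saline PLX males it had 2331 to 3099 (median 2744), against 1714 to 3120 (median 2028) in saline control males. The PLX median was higher in all 4 pairs, with overlap in each. The averaged log2 fold change was 0.48 ± 0.09 (adjusted p = 0.000593) in hippocampus and 0.61 ± 0.13 (adjusted p = 0.0016) in prefrontal cortex.

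Hif3a rose by 0.68 ± 0.16 log2 in hippocampus (adjusted p = 0.00197) and 0.64 ± 0.16 in prefrontal cortex (adjusted p = 0.00267). The insulin signalling adaptor Irs2 rose by 0.19 ± 0.05 (adjusted p = 0.00435) and 0.31 ± 0.07 (adjusted p = 0.00178), and Klf9 by 0.10 ± 0.03 (adjusted p = 0.0157) and 0.16 ± 0.04 (adjusted p = 0.00291). Map3k6 rose by 0.27 ± 0.09 in hippocampus (adjusted p = 0.0148). Hsd11b1, which regenerates active glucocorticoid inside cells, changed by -0.21 ± 0.04 (adjusted p = 0.000886) and -0.23 ± 0.07 (adjusted p = 0.00996), and Dusp1 by -0.41 ± 0.12 (adjusted p = 0.00582) and -0.33 ± 0.11 (adjusted p = 0.0191). Fkbp5 rose by 0.28 ± 0.12 in prefrontal cortex (adjusted p = 0.0476), a call that was lost with edgeR (adjusted p = 0.0758) and DESeq2 (adjusted p = 0.0644) on the recovered reads, and was 0.16 ± 0.08 in hippocampus (adjusted p = 0.0845). The log2 fold changes of Nr3c1 (0.04 and 0.07), Nr3c2 (-0.01 and 0.09), Sgk1 (0.05 and 0.01) and Tsc22d3 (0.14 and 0.10) did not pass.

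The inhibitor calls did not hold once the libraries that stand apart were taken into account. These libraries came from 2 of the 24 PLX labels and 12 of the 24 control labels, so their state and the inhibitor cannot be fully told apart. A lost call does not show that a difference is absent. With a term for these 14 labels, 0 of the 32 genes were called in either tissue, against 0.376% of all genes in hippocampus and 0.217% in prefrontal cortex, and 0 were called when the 14 were left out. At an unadjusted p under 0.05 (limma), the term gave 16 of 32 in hippocampus (13 higher, 3 lower), against 14.8% of genes. In prefrontal cortex it gave 12, all higher, against 12.3%. Without the term there were 10 and 12 of 32, against 48.7% and 47% of genes. These counts are not of independent genes. With the term, Plin4 had a log2 fold change of 0.98 (adjusted p = 0.118) and 0.95 (adjusted p = 0.247), Hif3a 0.53 and 0.46, Zbtb16 0.22 and 0.31, and Hsd11b1 -0.10 and -0.11. Irs2 had 0.07 and 0.19, Klf9 0.09 and 0.14, Dusp1 -0.36 and -0.25, Map3k6 0.31 in hippocampus and Fkbp5 0.36 in prefrontal cortex. Beside the estimates without the term, those of Map3k6 and Fkbp5 were larger and the others smaller in size. Zbtb16, Irs2 and Hsd11b1 shrank most in proportion. In the fit without the term, many markers of cell types were called for the averaged PLX effect as well. In both tissues 8 of 10 microglial markers fell, as did 6 of 12 endothelial markers. Of the 8 interneuron markers, 6 fell in hippocampus and 4 in prefrontal cortex. Of all genes, 19.2% fell in hippocampus and 18.1% in prefrontal cortex in this fit. Marker counts with the term are not given here. The summed microglial markers in hippocampi of females were 9072 to 10779 in MIA PLX, against 9558 to 12098 in MIA control, and 9072 to 10212 in saline PLX, against 9572 to 14804 in saline control. In males they were 8753 to 9913 in MIA PLX, against 9375 to 11208 in MIA control, and 8688 to 10419 in saline PLX, against 9018 to 11506 in saline control. Of the 10 immediate early genes, 5 fell in hippocampus and 2 in prefrontal cortex in the fit without the term, the latter close to the share of all genes. Their part in the result was not tested, and in bulk tissue fewer cells of a type and less RNA per cell cannot be told apart. Of the 19 genes of the receptor machinery, 11 rose and 4 fell in hippocampus and 10 rose and 2 fell in prefrontal cortex, among them the co-activator Ncoa3 (0.27 ± 0.05, adjusted p = 0.00073, and 0.25 ± 0.06, adjusted p = 0.00169). Of the 20 other targets, 4 rose and 3 fell in hippocampus, and 2 rose and 4 fell in prefrontal cortex. These counts stand beside 40.0% and 37.8% of all genes, and with the term for the 14 labels 0 genes of either list were called in either tissue, with Ncoa3 at 0.12 in hippocampus (adjusted p = 0.129).

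In the 8 single PLX comparisons limma called 0 of the 32 genes. At an unadjusted p under 0.05 there were 5 in hippocampi of MIA females, 12 in saline females, 5 in MIA males and 6 in saline males, and 4, 9, 5 and 5 in prefrontal cortex. Of all genes, 7.71%, 22.7%, 28.2% and 20.2% had such a p in these hippocampal comparisons and 7.59%, 17.8%, 24.9% and 27.8% in the prefrontal ones, so the counts in males lay below the share of all genes. At the adjusted threshold all genes gave 0.00502%, 0.0301%, 0.00502% and 0.0251% called in hippocampus and 0.0252%, 0.0252%, 0.0202% and 0.338% in prefrontal cortex, in the same order. edgeR called 0 of the 32 in each, while DESeq2 called Cdkn1a in hippocampi of saline females and 2 genes in prefrontal cortices of saline males. The smallest p-values in hippocampus belonged to Plin4 (1.48), Hif3a (0.81) and Sdc4 (0.29) in MIA females and to Cdkn1a (0.92), Hsd11b1 (-0.28) and Zbtb16 (0.59) in saline females, given as log2 fold changes. In males they belonged to Zbtb16 (0.62), Klf9 (0.19) and Hif3a (0.90) with MIA and to Dusp1 (-0.84), Tob2 (-0.26) and Hsd11b1 (-0.22) with saline. In prefrontal cortex they were Plin4 (1.57), Dusp1 (-0.55) and Hif3a (0.66) in MIA females and Irs2 (0.41), Zbtb16 (0.76) and Klf9 (0.20) in saline females. In males they were Hif3a (0.97), Zbtb16 (0.79) and Hsd11b1 (-0.37) with MIA and Ddit4 (-0.56), Arl4d (-0.50) and Tob2 (-0.28) with saline. Whether PLX acted differently in the sexes was tested on the averaged effect, with 0 of 32 called (0.0% of genes in each tissue; 1 and 5 of the 32 before adjustment, against 4.94% and 4.54% of genes, and 0 with edgeR and DESeq2): the smallest p-values were those of Ddit4 (0.26), Klf15 (0.20) and Sult1a1 (0.39) in hippocampus and Sgk1 (0.39), Slc2a1 (0.28) and Nfkbia (0.38) in prefrontal cortex, as female minus male log2 fold changes.

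The prenatal comparison asked what MIA changed. Averaged over sex and inhibitor, limma called 0 of the 32 genes in either tissue, as it did of all genes (0.0%), and edgeR and DESeq2 called 0 of the 32 too. At an unadjusted p under 0.05 there were 11 of 32 in hippocampus, against 4.76% of genes, and 10 in prefrontal cortex, against 5.96%. Plin4 had a log2 fold change of -0.94 ± 0.28 (adjusted p = 0.543) in hippocampus and -1.13 ± 0.32 (adjusted p = 0.53) in prefrontal cortex, and Sult1a1 -0.37 ± 0.10 (adjusted p = 0.469) and -0.34 ± 0.10 (adjusted p = 0.53). The third smallest p was that of Htra1 in hippocampus (-0.17 ± 0.06) and of Pdk4 in prefrontal cortex (0.19 ± 0.06). Fkbp5 had -0.20 ± 0.08 and -0.23 ± 0.12 and Zbtb16 -0.06 ± 0.09 and -0.20 ± 0.13, while Nr3c1 (0.09 and 0.07), Nr3c2 (0.08 and 0.03), Hsd11b1 (0.07 in each tissue), Sgk1 (0.06 and 0.09) and Tsc22d3 (-0.06 and -0.08) lay within 0.1 of 0. In the further lists limma called 0 of 19 genes of the receptor machinery and 0 of 20 other targets in both tissues, with 0 and 4 at an unadjusted p under 0.05 in each.

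Without inhibitor, MIA libraries of females tended to hold more of several induced genes than saline libraries, but no gene of the list passed the adjusted threshold with limma. Plin4 and Fkbp5 did not share this direction. In both tissues their medians were lower in MIA control females than in saline control females, with overlap. In hippocampus 12 of 32 had an unadjusted p under 0.05 (10 higher, 2 lower), against 6.41% of genes, and in prefrontal cortex 13 (12 higher, 1 lower), against 5.0% of genes. Limma called 1 gene of the table in hippocampus (0.00502%) and none in prefrontal cortex (0.0%), and that 1 gene was not on the list.

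Pdk4 had 294 to 479 (median 406) normalized counts in hippocampi of MIA control females, against 247 to 279 (median 261) in saline control females. In prefrontal cortex it had 280 to 450 (median 324) in MIA control females, against 210 to 255 (median 242) in saline control females. Every MIA library was above every saline library in both tissues. Its log2 fold change was 0.58 ± 0.13 in hippocampus (adjusted p = 0.126) and 0.51 ± 0.11 in prefrontal cortex (adjusted p = 0.325). It passed with DESeq2 in both tissues (adjusted p = 0.0115 and 0.0286), and in hippocampus when these 14 labels were a term of the fit (0.61, adjusted p = 0.0376). Cdkn1a had 231 to 564 (median 293) in hippocampi of MIA control females, against 121 to 182 (median 147) in saline control females, again with no overlap. Its log2 fold change was 1.03 ± 0.25 (adjusted p = 0.185, with DESeq2 0.016), and 1 MIA library, with 564, lay above the others (231 to 349). Tiparp, an ADP-ribosyltransferase, had 0.49 ± 0.12 in hippocampus (adjusted p = 0.187, with DESeq2 0.0315) and 0.72 ± 0.18 in prefrontal cortex (adjusted p = 0.473). Arl4d, a small GTPase, had 0.74 ± 0.18 in prefrontal cortex (adjusted p = 0.507).

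Without overlap between groups, and with every MIA library higher, stood 3 genes of the list in hippocampus (Pdk4, Cdkn1a and Tiparp), against 0.0752% of all genes, and 2 in prefrontal cortex (Pdk4 and Arl4d), against 0.0504%. Of the immediate early genes, 7 of 10 in hippocampus and 9 of 10 in prefrontal cortex had an unadjusted p under 0.05, against the 6.41% and 5.0% of all genes above, none passed the adjusted threshold, and their median log2 fold changes were 0.72 and 0.82. Their summed level was 4545 to 24859 (median 15967) in hippocampi of MIA control females, against 5501 to 10699 (median 7286) in saline control females. In prefrontal cortex it was 14460 to 28897 (median 26258) in MIA control females, against 10218 to 16128 (median 14794) in saline control females. Their part in the result was not tested.

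In males without inhibitor most of the genes were lower with MIA. Log2 fold changes were above 0 for 3 of 32 in hippocampus and 7 in prefrontal cortex, against 22 and 21 in females. Unadjusted p-values under 0.05 were found for 7 of 32 genes in hippocampus, against 2.38% of genes, and 6 in prefrontal cortex, against 2.56%, all of them lower with MIA. Limma, edgeR and DESeq2 called 0 of the 32 at the adjusted threshold, and limma 0.0% of genes in both tissues. Sult1a1 had 205, 197, 193, 124 and 189 normalized counts in hippocampi of MIA control males, against 201 to 372 (median 314) in saline control males. In prefrontal cortex it had 156, 225, 205, 125 and 149 in MIA control males, against 219 to 285 (median 259) in saline control males. Only 1 MIA library in each tissue reached the range of the saline libraries, and the log2 fold changes were -0.74 ± 0.22 and -0.59 ± 0.21 (adjusted p = 1.0 in each). Plin4 had -1.43 ± 0.57 and -1.73 ± 0.67, Map3k6 -0.47 ± 0.19 in hippocampus and Hif3a -0.87 ± 0.33 in prefrontal cortex. Plin4 lay at the low end in females as well, so not every gene differed in direction between the sexes. The number of genes with every MIA library lower was 0 of 32 in both tissues, against 0.0903% and 0.111% of all genes. The immediate early genes had median log2 fold changes of 0.09 in each tissue.

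The difference of the MIA effect between the sexes, female minus male without inhibitor, was positive for 28 of 32 genes in each tissue, with medians of 0.41 and 0.42. An unadjusted p under 0.05 was found for 12 in hippocampus, against 3.67% of genes, and 14 in prefrontal cortex, against 2.04%, all positive, and 0 of 32 passed the adjusted threshold with limma (0.0% of genes in each tissue), edgeR or DESeq2. The genes of the list vary together among libraries, so these counts are not of independent genes. The smallest p-values belonged to Tob2 (0.48 ± 0.13, adjusted p = 0.995), Pdk4 (0.71 ± 0.19) and Tiparp (0.63 ± 0.18) in hippocampus. In prefrontal cortex they belonged to Pdk4 (0.64 ± 0.16, adjusted p = 1.0), Arl4d (0.84 ± 0.27) and Ddit4 (0.85 ± 0.28). The immediate early genes had medians of 0.68 and 0.73 in the same difference. Both sexes' comparisons use their own saline libraries.

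**Figure D4:**
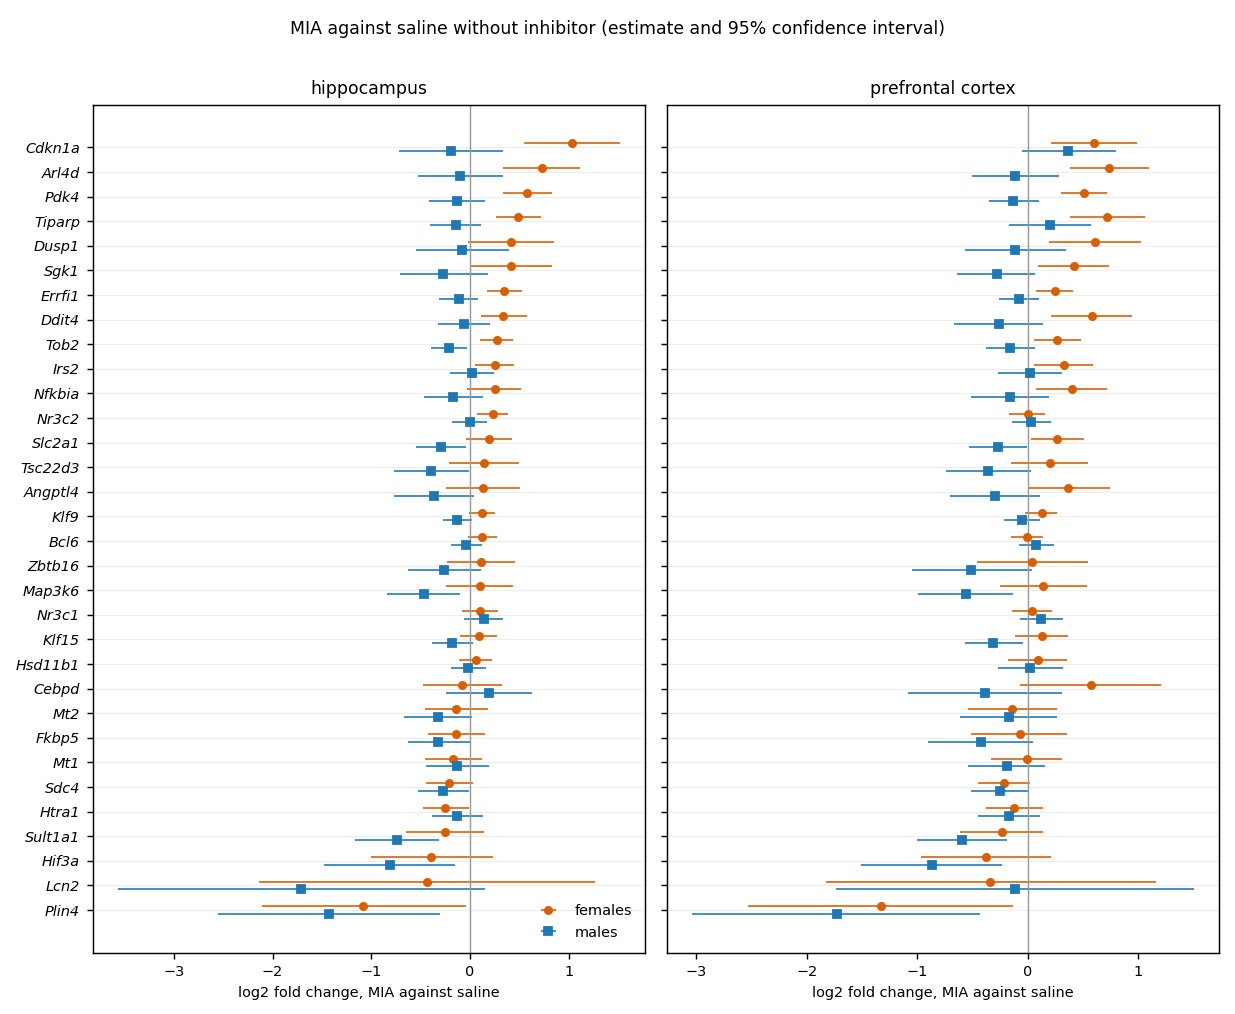
Log2 fold change of MIA against saline without inhibitor (x axis, with 95% confidence intervals) for the 32 genes, females as circles and males as squares, hippocampus left and prefrontal cortex right. Cdkn1a, Arl4d, Pdk4 and Tiparp lie at the high end in females, Plin4 lies at the low end in both sexes, and none passed the adjusted threshold.

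With PLX, 0 of 32 genes were called for MIA against saline in either sex or tissue (limma 0.0% of genes, 0 of the 32 with edgeR and DESeq2). Before adjustment there were 1 of 32 in females and 2 in males in hippocampus, against 2.74% and 2.47% of genes, and 2 in females and 1 in males in prefrontal cortex, against 5.35% and 2.89%. The smallest p-values were those of Hsd11b1 (0.19), Plin4 (-1.0) and Sult1a1 (-0.35) in hippocampi of females, and of Lcn2 (-2.73), Dusp1 (0.48) and Tob2 (0.17) in males. In prefrontal cortex they were those of Pdk4 (0.33), Arl4d (0.40) and Ddit4 (0.35) in females and of Lcn2 (-2.31), Tob2 (0.17) and Cdkn1a (-0.28) in males, all as log2 fold changes. Nor did the interaction of MIA with PLX call a gene of the list (limma 0.0% of genes in each sex and tissue, 0 of the 32 with edgeR and DESeq2). Before adjustment there were 5 of 32 in females and 1 in males in hippocampus, against 2.86% and 2.13% of genes, and 2 in each sex in prefrontal cortex, against 3.08% and 4.02%. Its smallest p-values were those of Cdkn1a (-1.19 ± 0.36, adjusted p = 0.933), Pdk4 (-0.50) and Errfi1 (-0.29) in hippocampi of females and Tob2 (0.38), Sult1a1 (0.61) and Tiparp (0.30) in males. In prefrontal cortex they were those of Tiparp (-0.65), Cdkn1a (-0.62) and Tob2 (-0.27) in females and Cdkn1a (-0.66), Tob2 (0.33) and Lcn2 (-2.19) in males. The median of Lcn2 was only 3.17 normalized counts in hippocampus and 4.53 in prefrontal cortex, so its fold changes rest on values near the floor.

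Between the sexes, averaged over treatments, 2 genes of the list were called in hippocampus, against 0.246% of genes. Mt2 was higher in females by 0.40 ± 0.08 log2 (adjusted p = 0.02) and Bcl6 lower by -0.17 ± 0.04 (adjusted p = 0.0252). Among saline controls, Mt2 had 375 to 541 (median 469) normalized counts in females, against 251 to 532 (median 383) in males. Bcl6 had 1213 to 1473 (median 1406) in saline control females, against 1404 to 1809 (median 1742) in saline control males. Both pairs overlapped, and the direction of the medians was the same with PLX and with MIA. With a term for the 14 labels, Mt1 was higher in females too (0.30, adjusted p = 0.00237). Without those libraries Mt1 (0.35, adjusted p = 0.0417) and Mt2 (0.48, adjusted p = 0.00856) passed and Bcl6 did not (-0.13, adjusted p = 0.554). In prefrontal cortex 0 of 32 were called by limma (0.141% of genes), edgeR and DESeq2, with 4 at an unadjusted p under 0.05, against 6.05% of genes: Hsd11b1 had -0.25 ± 0.07 (adjusted p = 0.27), Mt2 0.29 ± 0.11 (adjusted p = 0.609) and Mt1 0.18 ± 0.09. The other genes fixed for this comparison lay near 0: Fkbp5 had 0.00 and 0.02, Sgk1 0.07 and 0.01, Tsc22d3 0.02 and -0.03, Zbtb16 0.01 and 0.06, Nr3c1 -0.01 and -0.04, and Nr3c2 -0.05 and 0.01, with Hsd11b1 at -0.16 ± 0.04 in hippocampus (adjusted p = 0.144).

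Between tissues 26 of the 32 genes were called, 20 higher and 6 lower in hippocampus, against 65.9% of all genes, and the receptors ran in opposite directions. Nr3c2, the mineralocorticoid receptor, had 4024 to 6575 (median 5246) normalized counts in hippocampus and 1007 to 1456 (median 1243) in prefrontal cortex, with no overlap and a log2 fold change of 2.08 ± 0.03 (adjusted p = 3.67e-73). Hsd11b1 had 511 to 865 (median 644) in hippocampus and 110 to 258 (median 172) in prefrontal cortex, again with no overlap (1.91 ± 0.04). Nr3c1 had 1867 to 2924 (median 2420) in hippocampus and 2440 to 3904 (median 3128) in prefrontal cortex, with overlap (-0.38 ± 0.03, adjusted p = 6.52e-18). Of the induced genes, Cebpd (1.70 ± 0.10), Zbtb16 (0.94 ± 0.08), Fkbp5 (0.79 ± 0.07), Sdc4 (0.68 ± 0.05), Bcl6 (0.68 ± 0.03), Mt2 (0.66 ± 0.07), Plin4 (0.62 ± 0.22), Sgk1 (0.26 ± 0.07) and Tsc22d3 (0.16 ± 0.07) were higher in hippocampus. Cdkn1a (-1.73 ± 0.08), Arl4d (-0.95 ± 0.07), Dusp1 (-0.93 ± 0.08), Angptl4 (-0.23 ± 0.07) and Klf9 (-0.16 ± 0.03) were lower there. Cdkn1a had 113 to 621 (median 224) in hippocampus and 329 to 1164 (median 765) in prefrontal cortex. Lcn2, Slc2a1, Map3k6, Tiparp, Nfkbia and Sult1a1 were not called. The immediate early genes were all lower in hippocampus (10 of 10, median -0.92), as 8 of 10 oligodendrocyte and 8 of 10 astrocyte markers were higher. Their part in these differences was not tested. Of the further lists, 13 of 20 other targets were higher and 6 lower, led by Rasd1 (2.56 ± 0.06), and 4 of 19 genes of the receptor machinery were higher and 5 lower.

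**Figure D5:**
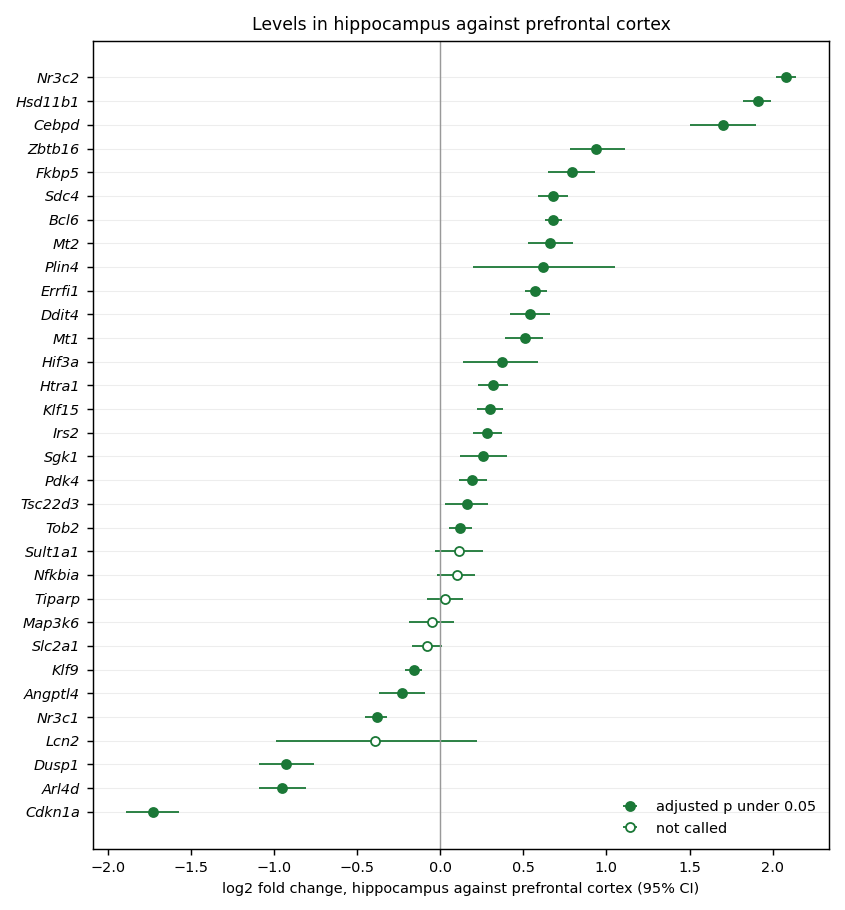
Log2 fold change of hippocampus against prefrontal cortex (x axis, with 95% confidence intervals) for the 32 genes, filled where the adjusted p was under 0.05. Nr3c2 (2.08), Hsd11b1 (1.91) and Cebpd (1.70) lie highest, and Cdkn1a (-1.73) lowest.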

How the data were processed

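RNA was measured in 96 libraries of 16 groups. The authors deposited 1 table of normalized counts (signal); per the submitters' processing notes, reads were trimmed with Trimmomatic and aligned with STAR 2.6.1d to GRCm39. How reads were counted is not given there. Multiplied by 1 factor per library, all values of all 96 columns came out as whole reads (tolerance 0.01), and reads given here are these. A further check accepted 75 of the columns as whole reads.

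Differences were fitted with limma 3.58.1 (R 4.3.3) on log2(value + 1), with a mean for each group, a trended moderated variance and Benjamini-Hochberg adjustment over all genes with at least 10 in at least 5 libraries (19938 in hippocampus, 19841 in prefrontal cortex and 20620 over both). "Called" means an adjusted p under 0.05. edgeR 4.0.16 (quasi-likelihood) and DESeq2 1.42.0 on the recovered reads were alternatives, as were other pseudocounts, filters and scalings, array weights, a term for or removal of the libraries that stand apart, a replicate block and leaving out each replicate.

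Correlations used deviations from group means, with permutation within groups (100000 resamples; Python 3.11.15, NumPy 2.4.6, SciPy 1.17.1), and their p-values were adjusted over all genes tested instead of over the 32 genes, a change from the plan. The setting that takes Fkbp5 from the other tissue was chosen after seeing the data. Libraries of the same label deviated together between tissues (r -0.0971 to 0.687, median 0.242, over 0.1 in 42 of 48), while same numbers in different groups did not (median r -0.000741 in hippocampus and -0.00998 in prefrontal cortex), so the numbers do not pair groups. The tissue fit takes both libraries of a label as independent. Scripts were tested on simulated data.

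The 32 genes and the other lists were chosen with earlier results of these data known. Named in each comparison are the genes called, up to 10 in each direction, or else the 3 with the smallest p-values; Nr3c1, Nr3c2, Hsd11b1, Fkbp5, Sgk1, Tsc22d3 and Zbtb16 are given in every averaged comparison. A marker of the prefrontal label is not reported here.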

Additional observations from a re-analysis of the deposited data

Results flagged for a closer look

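In 12 of 256 groups of the 16 genes whose group values were examined (4.69%), and in 29 of 512 over all 32 genes (5.66%), 1 library lay far from the others of its group by Dixon's criterion at 95%, which chance meets in about 1 group in 20. In hippocampus these were Hsd11b1 in saline PLX males (library 1, 751 normalized counts, others 582 to 645), Cdkn1a in MIA control females (library 3, 564, others 231 to 349), Sult1a1 in MIA control males (library 5, 124, others 189 to 205), and Dusp1 in MIA PLX males (library 6, 654, others 307 to 384) and in MIA control females (library 2, 1057, others 273 to 610). In prefrontal cortex they were Plin4 in MIA control females (library 3, 1107, others 15.4 to 317), Tsc22d3 in MIA control females (library 4, 3603, others 1645 to 2464), Hif3a in MIA control males (library 2, 315, others 107 to 157), Dusp1 in MIA PLX females (library 1, 878, others 607 to 681), Nr3c2 in saline control males (library 6, 1439, others 1034 to 1154), and Nr3c1 (2504, others 3239 to 3590) and Mt1 (2362, others 1601 to 1807) in saline PLX males, both in library 5. The sex differences of the PLX and MIA effects and the interactions of MIA with PLX passed the adjusted threshold for 0 of the 32 genes with limma, edgeR and DESeq2.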

How the results depend on the processing

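With a term for the 14 labels that stand apart, and without them, the averaged PLX comparison gave 0 called genes in each tissue, and the term gave 1 for MIA against saline in hippocampi of control females. Within the libraries that stand apart both kinds of correlation gave 0 calls. Array weights gave 12, 7 and 9 called genes for PLX in hippocampi of saline females, MIA males and saline males, 6 and 9 in prefrontal cortices of MIA and saline males, 13 for the averaged PLX effect, 1 for sex and 3 for the sex difference of the PLX effect in prefrontal cortex; the cause was not tested. DESeq2 gave 1 for PLX in hippocampi of saline females and 2 in prefrontal cortices of saline males, and 3 and 1 for MIA in hippocampus and prefrontal cortex of control females. Leaving out each replicate gave 0 to 1 calls for MIA in hippocampi of control females and 0 to 2 in prefrontal cortex, the highest without MIA control females' library 3. It gave 0 to 4 for PLX in hippocampi of MIA males and 0 to 3 in prefrontal cortex (the highest without MIA control males' library 2), and 0 to 2 for PLX in prefrontal cortices of saline males (the highest without saline control males' library 6); the averaged PLX effect gave 8 to 10 calls in hippocampus and 7 to 9 in prefrontal cortex. With the replicate block, 8 genes in hippocampus and 7 in prefrontal cortex were called for PLX, 2 for sex in hippocampus and 29 between tissues, where the label was the block. No named fold change that passed in either fit changed sign. Among those that passed in neither, 8 changed sign with array weights, 8 with the term and 8 without the 14 labels. With edgeR, DESeq2 and the replicate block it was 1 each. Leaving out the 2 farthest labels gave 21 calls in place of 23 between tissues and 24 in place of 28 with Fkbp5 over both tissues, and Fkbp5 from the other tissue gave 25.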
